A study of Homo sapiens with 24 samples.

Results

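Kinesins are motor proteins that use ATP to move along, slide or shorten microtubules. One branch of the family works in dividing cells, where its members separate the spindle poles, position chromosomes, correct their attachments and build the midzone that ends in cytokinesis. The other large branch hauls vesicles, endosomes, mitochondria and ciliary cargo in cells between divisions. In cycling cells the transcripts of most mitotic kinesins are known to accumulate in G2 and M phase, whereas transport kinesins are expressed largely apart from the cell cycle.

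The family was followed in U251 cells, an established human glioblastoma line, exposed to G-1, an agonist of the G protein-coupled estrogen receptor GPER. Cells had been deprived of steroid hormones in charcoal-stripped medium for 24 h, and were then kept with 0.1% DMSO as the vehicle (the labels' value, while the study's text gives another), with the G-1 dose that the labels call IC50 (lower than 1 µM in the study's text), or with 1 µM G-1, each for 24 h or 72 h. Each of the 6 groups held 4 biological replicates per the labels, 24 single-colour Agilent arrays in all. The cells are 1 cultured line with no other cell type or tissue around them, and cells without GPER were not analysed here. For 8 arrays the duration tag contradicts the title, namely the 24 h arrays of the IC50 dose and the 72 h arrays of 1 µM, and the titles were used.

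All genes with a symbol of the KIF series were taken, with KIFC1, KIFC2 and KIFC3, and without antisense transcripts and pseudogenes. This gave 41 genes measured by 60 probes, among 24817 gene symbols on the array. They were placed in 3 lists, with 13 mitotic kinesins, 17 transport kinesins and 11 other kinesins with ciliary, developmental, mixed or less settled roles. *KIF2A*, which acts both at spindle poles and in growing processes, was placed in the last list. A gene was tested when the scanner software had marked a probe as clearly brighter than background on every array of some group, which 32 kinesins by 44 probes passed (11 mitotic, 16 transport and 5 other), among 14235 genes by 22970 probes of the whole array. *KIF4B*, a retrocopy of *KIF4A*, had no probe here.

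Values are log2 of the processed signal minus the 75th percentile of the same array, so a value of 0 is the level of that percentile and a difference of 1 is a doubling. Levels of different probes are not compared, since probes bind with different strength. A gene is given by its brightest tested probe, and is said to have risen or fallen when limma's adjusted p was under 0.05. This p was adjusted by the Benjamini-Hochberg method over all 22970 probes.

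All 8 arrays of the 1 µM dose lay on a slide of their own in a second scanning session, while DMSO and IC50 arrays were spread over 2 slides of the first session. From 38% to 40.7% of probes stood above background on the 1 µM slide, against 41.1% to 44.5% on the other slides, and the median background of an array was 48 to 58 there against 44 to 48 units. The 1 µM dose and its slide cannot be told apart in any comparison of that dose with DMSO or with the IC50 dose. The change of the 1 µM arrays from 24 h to 72 h lies within 1 slide. U251 identity was checked on 9 astroglial and glioma markers, of which 8 (*GFAP*, *VIM*, *NES*, *CD44*, *S100B*, *SOX2*, *SOX9* and *FABP7*) stood above background on all 24 arrays and *OLIG2* on none. Of 11 measured markers of other cell types, 5 (*PTPRC*, *AIF1*, *PECAM1*, *EPCAM* and *CDH1*) stood above background on no array.

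The question of which kinesins follow the G-1 dose was first put to the 1 µM groups. Mitotic kinesins rose nearly throughout at 1 µM. At 24 h, 9 of the 11 tested were higher than in DMSO and 0 lower, beside 20% of all genes tested that were higher and 10.5% that were lower. At 72 h, 10 of 11 were higher and 0 lower, beside 35.2% and 31% of all genes. Their median log2 fold change was 0.66 at 24 h and 0.68 at 72 h, while the median over all genes tested was 0.04 and 0.03. In a fit that pairs arrays of one replicate number and duration (a replicate block), 11 of 11 were higher at 24 h and 10 of 11 at 72 h. That fit was added after the data were seen, and whether such arrays were truly paired was not settled. The share of all genes higher under it is not given, so its counts have no such share to be set beside. The share of higher among all called genes at 24 h depended on the scaling, being 65.5% here, 54.3% with quantile normalization, 44.2% with the 50th percentile and 49.7% with normexp background correction, under which 9, 8 and 8 mitotic kinesins were higher and 0 lower. Most rises were under 2-fold, since 0 mitotic kinesins at 24 h and 1 at 72 h (*KIF18A*) passed that threshold too, beside 0.513% and 4.92% of all genes. In an array of a whole culture, more cells in a phase and more RNA per cell cannot be told apart.

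**Figure D1:**
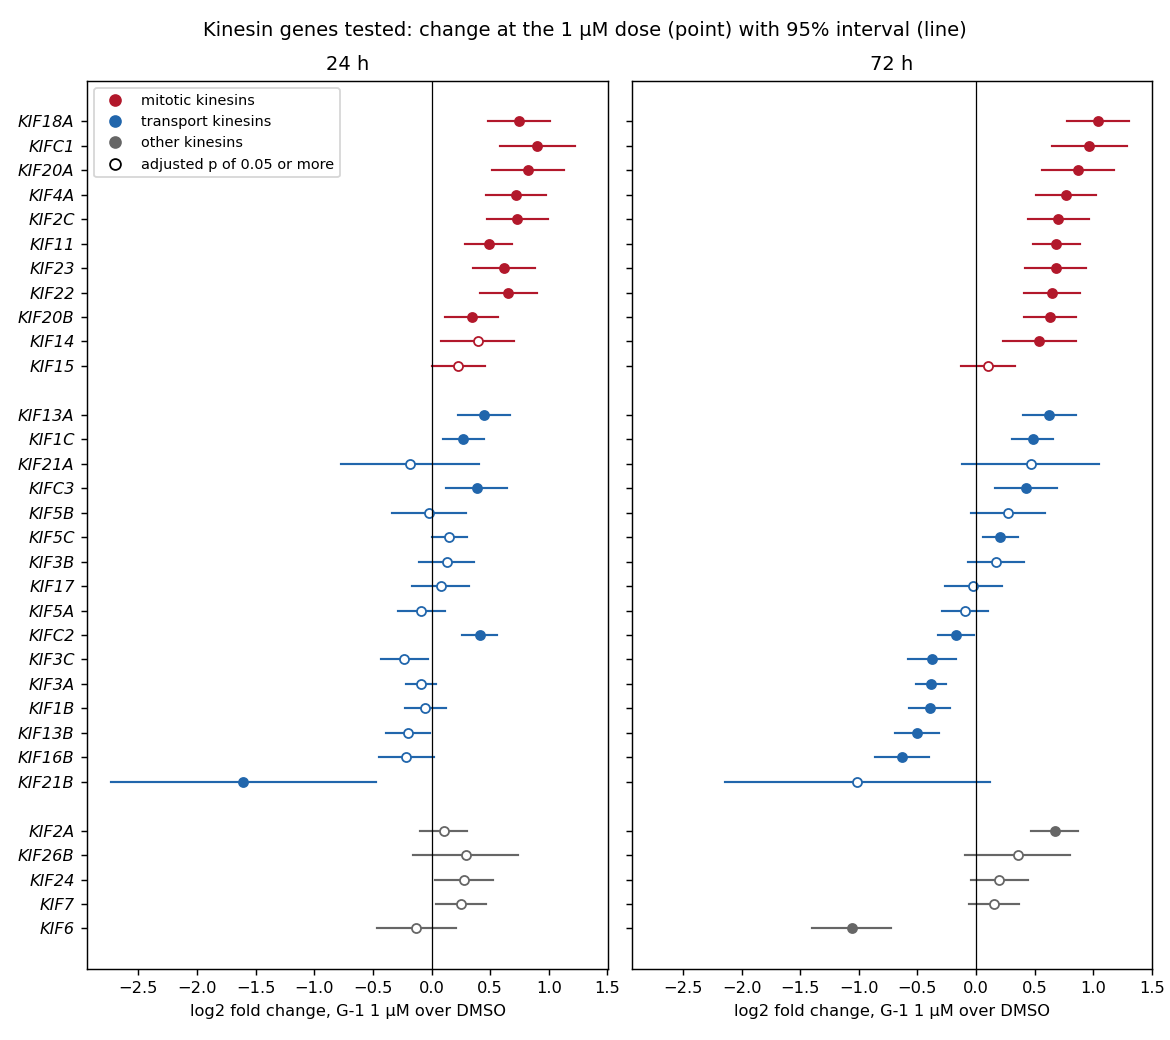
Log2 fold change of the 1 µM dose over DMSO after 24 h (left) and after 72 h (right) for the 32 kinesins tested, by the brightest probe, with 95% intervals as lines and filled points for an adjusted p under 0.05. The 11 mitotic kinesins lie right of 0 at both times, from 0.23 to 0.90 at 24 h and from 0.10 to 1.04 at 72 h, while transport kinesins lie on both sides, with *KIF21A* and *KIF21B* drawn from signals above background on at most 1 of 4 arrays at 1 µM.

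*KIF18A*, which moves to the plus ends of kinetochore microtubules and dampens chromosome oscillation, showed the largest change of a mitotic kinesin at 72 h. Its log2 signal on the 4 DMSO arrays was 1.28, 1.61, 1.30 and 1.04 at 24 h and 1.31, 1.33, 1.49 and 1.17 at 72 h. On the 1 µM arrays it was 2.07, 2.25, 1.99 and 1.88 at 24 h and 2.62, 2.00, 2.44 and 2.39 at 72 h. All 1 µM arrays lay above all DMSO arrays at either time, with a log2 fold change of 0.74 ± 0.13 (SE, 4 arrays per group, limma adjusted p = 0.000343) at 24 h and 1.04 ± 0.13 (adjusted p = 6.02e-07), or 2.05-fold, at 72 h.

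*KIFC1* is a minus-end-directed motor that focuses spindle poles and clusters extra centrosomes. It gave 2.82, 2.98, 2.62 and 2.49 in DMSO and 3.79, 3.91, 3.52 and 3.30 at 1 µM after 24 h. After 72 h it gave 2.73, 2.86, 3.17 and 2.53 in DMSO and 3.67, 3.69, 3.91 and 3.88 at 1 µM. The groups did not overlap at either time, and the rise was 1.87-fold at 24 h (log2 0.90 ± 0.15, limma adjusted p = 0.000309) and 1.95-fold at 72 h (log2 0.97 ± 0.15, adjusted p = 1.53e-05).

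*KIF20A*, which carries the chromosomal passenger complex to the anaphase midzone, read 3.85, 4.17, 3.39 and 3.53 in DMSO and 4.62, 4.73, 4.54 and 4.34 at 1 µM after 24 h. The values after 72 h were 3.78, 3.85, 3.79 and 3.69 in DMSO and 4.804, 4.31, 4.68 and 4.79 at 1 µM. The DMSO arrays were spread more widely at 24 h than at 72 h, and the 1 µM arrays stayed above them at both times. The fold changes were 1.77 (limma adjusted p = 0.000515) and 1.83 (adjusted p = 3.53e-05).

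**Figure D2:**
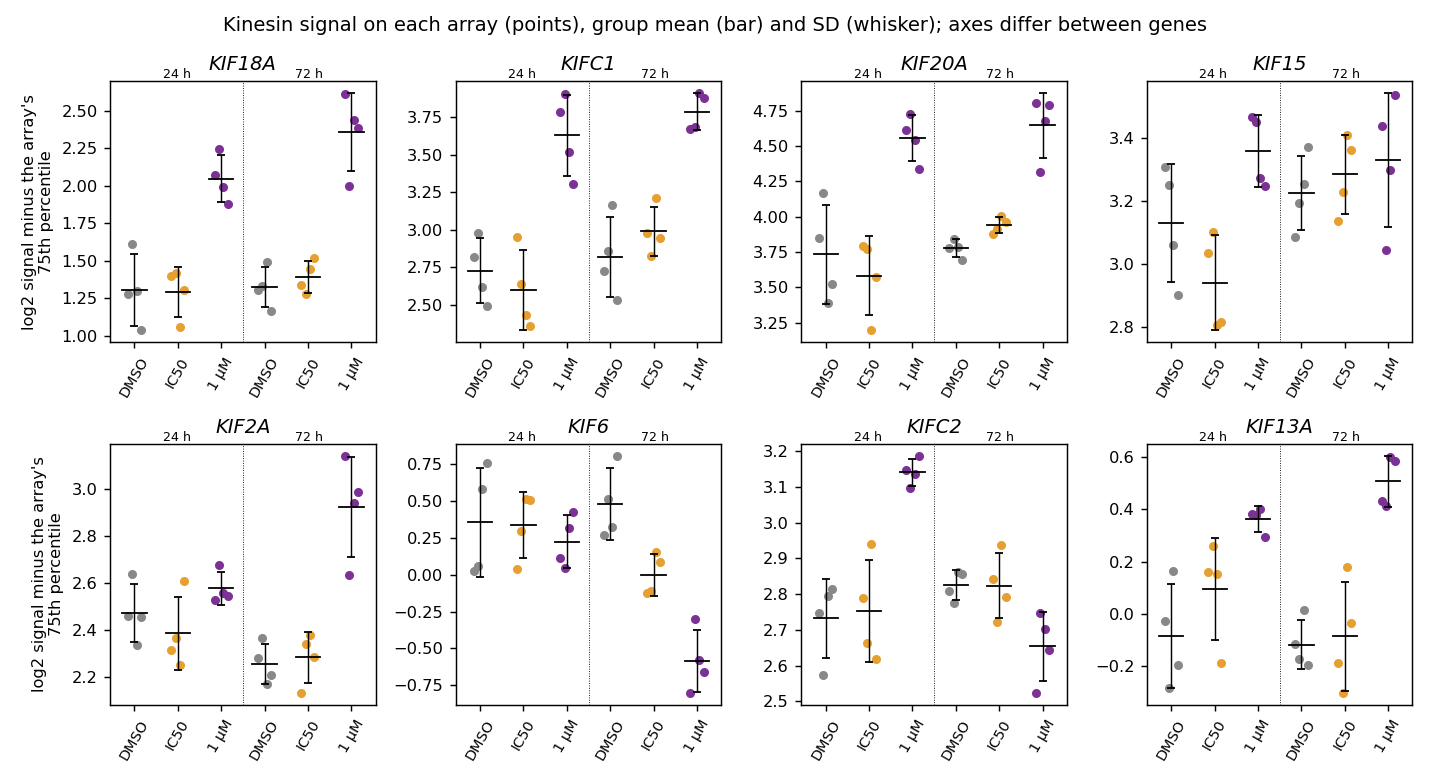
Log2 signal on each array (points), with the group mean (bar) and SD (whisker), for 8 kinesins under DMSO, the IC50 dose and the 1 µM dose after either duration, 4 arrays per group. *KIF18A*, *KIFC1* and *KIF20A* are raised on the 1 µM arrays at both times, *KIF15* overlaps, *KIF2A* and *KIF6* part from DMSO at 72 h, and *KIFC2* lies above DMSO at 24 h and below it at 72 h.

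The chromokinesins bind chromosome arms as well as microtubules. *KIF4A*, which also sets the length of the midzone with its partner PRC1, read 3.35, 3.49, 3.30 and 3.02 in DMSO and 4.18, 4.11, 4.01 and 3.74 at 1 µM after 24 h, and 3.51, 3.51, 3.76 and 3.49 in DMSO and 4.23, 4.29, 4.48 and 4.32 at 1 µM after 72 h. It rose 1.65-fold (limma adjusted p = 0.000315) and 1.7-fold (adjusted p = 1.66e-05), with no overlap of the groups. Whether its probes also bind transcripts of *KIF4B* was not tested. *KIF22* read 3.30, 3.16, 3.12 and 2.98 in DMSO and 3.99, 3.85, 3.78 and 3.57 at 1 µM after 24 h, and 3.15, 3.22, 3.32 and 3.17 in DMSO and 3.66, 3.94, 4.06 and 3.79 at 1 µM after 72 h. Its groups were also apart at both times, with rises of 1.58-fold (limma adjusted p = 0.000426) and 1.57-fold (adjusted p = 5.91e-05).

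*KIF23* is the motor of centralspindlin, the complex that bundles midzone microtubules. It read 6.13, 6.05, 5.80 and 5.65 in DMSO and 6.72, 6.61, 6.54 and 6.23 at 1 µM after 24 h, and 5.85, 5.92, 5.99 and 6.10 in DMSO and 6.70, 6.41, 6.70 and 6.78 at 1 µM after 72 h. *KIF2C*, which shortens microtubules to release wrong attachments, read 5.58, 5.59, 5.39 and 5.23 in DMSO and 6.43, 6.36, 6.11 and 5.81 at 1 µM after 24 h, and 5.51, 5.58, 5.66 and 5.53 in DMSO and 6.26, 6.21, 6.32 and 6.29 at 1 µM after 72 h. Neither gene's 1 µM arrays reached down to its DMSO arrays. *KIF23* rose 1.53-fold (limma adjusted p = 0.00127) and 1.6-fold (adjusted p = 8.54e-05), and *KIF2C* 1.66-fold (adjusted p = 0.000342) and 1.62-fold (adjusted p = 6.14e-05).

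*KIF11*, the motor that pushes the spindle poles apart, rose 1.4-fold at 24 h (limma adjusted p = 0.00109) and 1.61-fold at 72 h (adjusted p = 3.94e-06). *KIF20B*, which acts in cytokinesis, rose 1.27-fold (adjusted p = 0.0216) and 1.55-fold (adjusted p = 3.56e-05). The 24 h call of *KIF20B* was lost with 50th-percentile scaling (adjusted p = 0.164) and with normexp (adjusted p = 0.167). *KIF14*, another motor of cytokinesis, passed the test at 72 h with a log2 change of 0.54 (adjusted p = 0.0038) and gave 0.39 at 24 h (adjusted p = 0.0546). *KIF15*, which can take over spindle maintenance from KIF11, passed at neither time. Its log2 signal was 3.09, 3.20, 3.25 and 3.37 in DMSO and 3.44, 3.05, 3.30 and 3.54 at 1 µM after 72 h, so the groups overlapped, and the 95% interval of its change was -0.13 to 0.33. *KIF18B* and *KIF2B*, the remaining mitotic kinesins, were not tested, as *KIF18B* stood above background on 4 of 24 arrays and *KIF2B* on none.

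For 4 mitotic kinesins a further probe was tested, and it was called higher at both times in all 4. The further probe of *KIF23* gave a larger change at 72 h than the brightest (1.30 against 0.68 on the log2 scale), that of *KIF20B* 1.00 against 0.63, that of *KIF4A* 0.94 against 0.77 and that of *KIF22* 0.64 against 0.65. Without overlap, all 4 arrays at 1 µM lay above all 4 DMSO arrays for 9 of 11 mitotic kinesins at 24 h and 10 of 11 at 72 h, while 19.5% and 31.2% of all genes tested showed such a separation upward. The 2 kinesins left out of the first count were *KIF14* and *KIF15*.

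On single arrays, the median over the 11 mitotic kinesins, as a log2 difference from the DMSO mean of the same duration, was 0.81, 0.71, 0.64 and 0.37 on the 1 µM arrays at 24 h and 0.69, 0.54, 0.75 and 0.76 at 72 h. The DMSO arrays themselves spread from -0.23 to 0.18 at 24 h and from -0.07 to 0.09 at 72 h. Replicates 3 and 4 lay below replicates 1 and 2 in DMSO, at the IC50 dose and at 1 µM at 24 h. The 1 µM arrays lay above the DMSO arrays all the same.

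**Figure D3:**
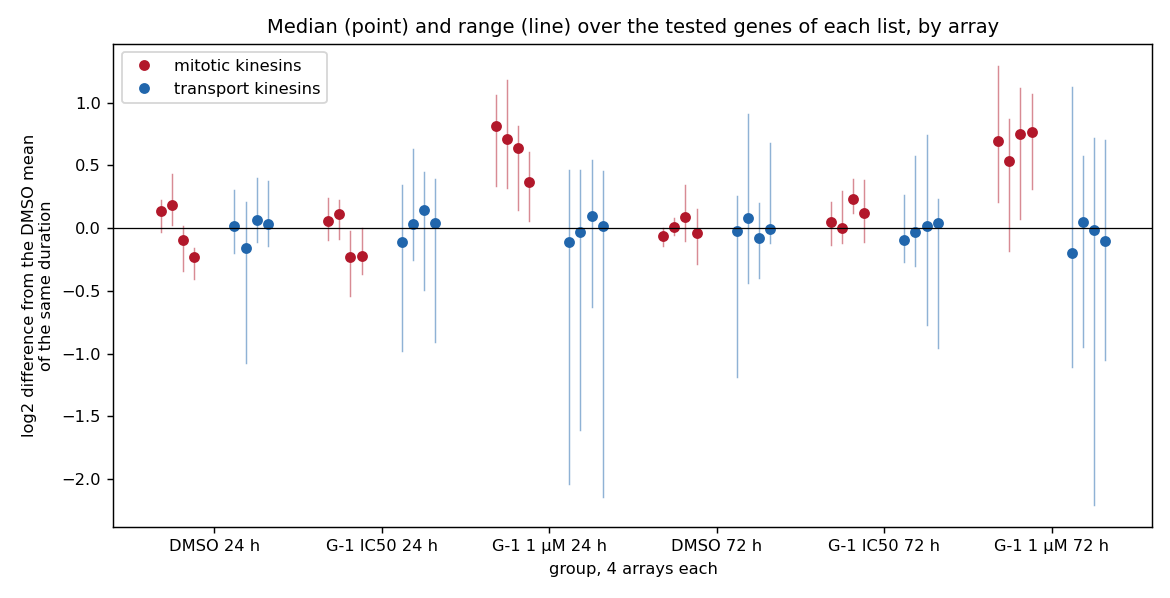
Median (point) and range (line) over the 11 mitotic and the 16 transport kinesins tested, as log2 difference from the DMSO mean of the same duration, on each of the 24 arrays. The mitotic medians lie between 0.37 and 0.81 on the 8 arrays of the 1 µM dose and between -0.23 and 0.23 elsewhere, while transport medians stay between -0.20 and 0.14 on all arrays.

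The promoters of the mitotic kinesins were then read for 2 elements that are known from cell cycle genes. The cell cycle genes homology region, or CHR, was searched as TTTGAA or TTCGAA, and the CCAAT box, which binds NF-Y, as CCAAT, both on either strand and in the 250 bases before each start site. Promoter sequences came from RefSeq on GRCh38.p14 and were found for 33 of the 41 kinesins, not for *KIF13B*, *KIF19*, *KIF21B*, *KIF26B*, *KIF27*, *KIF5A*, *KIFC2* and *KIFC3*. The last 100 bases before the start site are shown for 9 mitotic and 2 transport kinesins, in the direction of transcription, since these show how matches to both elements sit side by side in several of the genes that rose. Capitals mark the matches, which read TTCAAA or ATTGG where the element lies on the other strand. For *KIF22* the first of its 2 promoters is shown.
KIF11 (chr10:92593030-92593129, plus strand): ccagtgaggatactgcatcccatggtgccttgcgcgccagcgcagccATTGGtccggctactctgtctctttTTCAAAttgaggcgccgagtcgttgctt
KIF18A (chr11:28108157-28108256, minus strand): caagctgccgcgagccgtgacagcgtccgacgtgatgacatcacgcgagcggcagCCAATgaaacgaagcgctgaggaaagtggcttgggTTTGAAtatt
KIF22 (chr16:29790651-29790750, plus strand): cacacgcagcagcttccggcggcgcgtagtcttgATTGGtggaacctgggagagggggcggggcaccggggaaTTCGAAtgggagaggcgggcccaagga
KIF23 (chr15:69414249-69414348, plus strand): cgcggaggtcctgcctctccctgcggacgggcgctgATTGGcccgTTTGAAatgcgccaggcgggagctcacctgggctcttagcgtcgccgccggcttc
KIF4A (chrX:70290004-70290103, plus strand): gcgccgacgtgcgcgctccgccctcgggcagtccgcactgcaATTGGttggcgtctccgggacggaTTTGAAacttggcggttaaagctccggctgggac
KIF15 (chr3:44761694-44761793, plus strand): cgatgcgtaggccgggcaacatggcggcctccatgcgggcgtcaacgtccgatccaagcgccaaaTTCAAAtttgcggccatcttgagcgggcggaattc
KIF20A (chr5:138179012-138179111, plus strand): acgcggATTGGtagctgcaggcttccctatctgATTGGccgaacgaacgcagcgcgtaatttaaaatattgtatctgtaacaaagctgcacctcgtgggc
KIFC1 (chr6:33391723-33391822, plus strand): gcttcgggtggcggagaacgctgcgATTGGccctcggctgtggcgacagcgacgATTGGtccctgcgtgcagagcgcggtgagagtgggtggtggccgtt
KIF2C (chr1:44739737-44739836, plus strand): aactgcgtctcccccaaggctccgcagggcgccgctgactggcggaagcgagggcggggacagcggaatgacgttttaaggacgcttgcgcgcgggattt
KIF1C (chr17:4997850-4997949, plus strand): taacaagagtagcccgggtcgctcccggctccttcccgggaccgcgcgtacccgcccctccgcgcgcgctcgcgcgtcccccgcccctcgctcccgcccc
KIF16B (chr20:16573449-16573548, minus strand): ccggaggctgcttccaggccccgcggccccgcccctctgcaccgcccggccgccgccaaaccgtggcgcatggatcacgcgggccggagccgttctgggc

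The first 5 of these, *KIF11*, *KIF18A*, *KIF22*, *KIF23* and *KIF4A*, held both a CHR and a CCAAT match. The CHR match began 28, 10, 27, 55 and 34 bases before the start, and the CCAAT match 53, 45, 66, 64 and 58 bases before it, so CCAAT lay upstream of CHR in each. *KIF15*, which passed no test, also held a CHR match, 35 bases before its start. *KIF20A* and *KIFC1*, with some of the larger rises, held a pair of CCAAT matches each and no CHR match in the 250 bases, and *KIF2C* held neither. *KIF1C* and *KIF16B*, transport motors, held neither.

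In the whole 250 bases, 6 of 13 mitotic kinesins had a CHR match in at least 1 promoter, 10 of 13 a CCAAT match, and 5 had both in the same promoter. Of the 12 transport kinesins with a promoter, 1 had a CHR match (*KIF5B*, 140 bases before its start), 4 a CCAAT match and 1 both. Of 8 other kinesins, 0 had a CHR match and 3 a CCAAT match. Among all 35116 promoters of the table, 14.3% held a CHR match, 32% a CCAAT match and 5.05% both. A gene with several promoters, such as *KIF22*, had more than 1 chance of a match, and the 5 or 6 letters may overlap other elements that were not searched. These are matches of letters and no measure of binding.

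Transport kinesins moved in both directions at 1 µM after 72 h. At 24 h, 4 of 16 were higher and 1 lower, beside 30.6% of all genes tested that passed in either direction. The 1 lower was *KIF21B*, which was tested only because all 4 IC50 arrays at 24 h exceeded background. Its call is therefore not read as a fall. At 72 h, 4 of 16 were higher and 6 lower, beside 66.1% of all genes that passed. Their median log2 fold change was -0.04 at 24 h and -0.06 at 72 h, close to the 0.04 and 0.03 of all genes. The sign of the second median depended on the choice of probe, as it was 0.12 with the mean of a gene's tested probes and 0.23 with the dimmest. Apart from *KIF21B* at 24 h, whose 1 µM signal was not above background and for which no fold is given, 0 transport kinesins passed a 2-fold threshold at either time. Of all genes, 1.18% at 24 h and 7.42% at 72 h were called lower by over 2-fold.

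The risers were *KIF13A*, *KIF1C* and *KIFC3* at both times, with *KIFC2* at 24 h and *KIF5C* at 72 h. *KIF13A*, which brings recycling endosomes toward the cell surface, read -0.03, -0.28, 0.17 and -0.19 in DMSO and 0.38, 0.38, 0.40 and 0.29 at 1 µM after 24 h. After 72 h it read -0.11, -0.17, 0.02 and -0.20 in DMSO and 0.43, 0.41, 0.60 and 0.58 at 1 µM. The groups were apart at both times, with rises of 1.36-fold (limma adjusted p = 0.00452) and 1.54-fold (adjusted p = 4.34e-05).

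*KIF1C*, a carrier of integrin-containing and dense-core vesicles, read 7.43, 7.37, 7.46 and 7.45 in DMSO and 7.80, 7.63, 7.66 and 7.72 at 1 µM after 24 h, and 7.36, 7.38, 7.64 and 7.56 in DMSO and 8.001, 7.92, 7.95 and 7.99 at 1 µM after 72 h. Its change was small, 1.21-fold (limma adjusted p = 0.0188) and then 1.4-fold (adjusted p = 4.19e-05), but the arrays did not overlap. The 24 h call of *KIF1C* was lost without 1 µM replicate 1 (adjusted p = 0.0615) and with 50th-percentile scaling (adjusted p = 0.158). *KIFC3*, a minus-end-directed motor linked to cell junctions, read 2.20, 1.88, 2.38 and 2.31 in DMSO and 2.52, 2.57, 2.73 and 2.49 at 1 µM after 24 h, and 2.27, 2.34, 2.51 and 2.43 in DMSO and 2.46, 2.96, 3.07 and 2.76 at 1 µM after 72 h. It rose 1.31-fold (limma adjusted p = 0.0254) and 1.34-fold (adjusted p = 0.00559), with 1 array of the 1 µM dose below the highest DMSO array at 72 h. The 24 h call of *KIFC3* was lost without DMSO replicate 2 (adjusted p = 0.101) or without 1 µM replicate 3 (adjusted p = 0.0769), and with 50th-percentile scaling (adjusted p = 0.0957).

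The fallers at 72 h were *KIF16B*, *KIF13B*, *KIF1B*, *KIF3A*, *KIF3C* and *KIFC2*. *KIF16B*, which drives early endosomes outward, read 0.08, 0.15, 0.16 and 0.05 in DMSO and -0.25, 0.07, -0.11 and -0.13 at 1 µM after 24 h, and 0.14, 0.36, 0.09 and 0.08 in DMSO and -0.34, -0.78, -0.51 and -0.24 at 1 µM after 72 h. The groups overlapped at 24 h and were apart at 72 h, when the signal was 1.55-fold lower (limma adjusted p = 5.21e-05). A further probe of *KIF16B* designed on another RefSeq transcript went the other way at 72 h. Its log2 change there was 1.05 (limma adjusted p = 4.13e-07).

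*KIF13B*, which carries a discs-large scaffold protein, read 4.48, 4.12, 4.32 and 4.16 in DMSO and 4.00, 3.99, 4.12 and 4.17 at 1 µM after 24 h, and 4.23, 4.44, 4.20 and 4.25 in DMSO and 3.79, 3.82, 3.77 and 3.75 at 1 µM after 72 h. The 72 h arrays at 1 µM were close to each other and below all DMSO arrays, 1.42-fold lower (limma adjusted p = 6.61e-05), while a further probe of the gene gave 0.01 on the log2 scale. *KIF1B*, a carrier of mitochondria and synaptic vesicle precursors, fell by 0.40 on the log2 scale at 72 h (adjusted p = 0.000362) by its brightest probe, and its 3 further probes gave -0.09, 0.35 and 0.42, the last pair called higher. *KIF3A*, the motor of intraflagellar transport together with KIF3B, fell 1.3-fold at 72 h (adjusted p = 1.97e-05), from 2.61, 2.65, 2.47 and 2.51 in DMSO to 2.18, 2.19, 2.20 and 2.14 at 1 µM. Its partner *KIF3B* gave 0.17 (adjusted p = 0.194). *KIF3C* fell 1.3-fold at 72 h (adjusted p = 0.00211), and its dimmer probe gave 0.26 (adjusted p = 0.125).

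*KIFC2*, a minus-end-directed motor best known from neurons, changed direction with time. Its brightest probe read 2.75, 2.57, 2.80 and 2.81 in DMSO and 3.15, 3.096, 3.14 and 3.19 at 1 µM after 24 h, with all 1 µM arrays higher, and 2.81, 2.78, 2.86 and 2.86 in DMSO and 2.52, 2.75, 2.70 and 2.65 at 1 µM after 72 h, with all 1 µM arrays lower. The changes were 0.41 ± 0.07 (SE, limma adjusted p = 0.000451) and -0.17 ± 0.07 (adjusted p = 0.0448) on the log2 scale. The 72 h call was close to the threshold and was lost without 1 µM replicate 1 (adjusted p = 0.151), without DMSO replicate 3 (adjusted p = 0.0925) and on leaving out 7 further arrays singly. A dimmer probe of *KIFC2* gave -0.06 at 24 h and -0.85 at 72 h, the second called lower (adjusted p = 0.000295).

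*KIF21B*, which pauses growing microtubule ends, was called lower at 24 h (limma adjusted p = 0.031) from a dim probe. That probe passed the filter only through the IC50 group at 24 h, where 4 of 4 arrays exceeded background. The gene read -2.45, -3.82, -2.35 and -2.37 in DMSO, where 3 of 4 arrays exceeded background, and -4.79, -4.36, -3.38 and -4.89 at 1 µM, where 0 of 4 did. The groups overlapped, and no fold is given since the detection limit of the 1 µM arrays lies as high as the DMSO mean. The call was lost on leaving out DMSO replicate 1, 3 or 4 (adjusted p of 0.0701, 0.0748 and 0.0748) or 1 µM replicate 1, 2 or 4 (adjusted p of 0.0825, 0.0583 and 0.0757), and with normexp background correction (adjusted p = 0.358). At 72 h, when 2 of 4 DMSO arrays and 1 of 4 at 1 µM exceeded background, the gene missed the threshold (adjusted p = 0.108), but it was called lower without DMSO replicate 1 (adjusted p = 0.0338) or without 1 µM replicate 2 (adjusted p = 0.0249).

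*KIF5B*, the heavy chain of conventional kinesin in most cells, passed no test by its brightest probe (log2 change 0.27, adjusted p = 0.122 at 72 h), while a dimmer probe was called higher at both times (0.32 and 0.63). Its neuronal relative *KIF5C* rose 1.15-fold at 72 h (limma adjusted p = 0.016), and *KIF5A* gave -0.09 (adjusted p = 0.396). *KIF17* passed at neither time, with -0.03 at 72 h. *KIF21A* also passed at neither time, and no change is given for it, since it stood above background on 1 of 4 arrays at 1 µM at either time and on 2 of 4 in DMSO at 72 h. *KIF1A*, the neuronal vesicle motor, stood above background on no array.

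Across the 6 transport kinesins with further tested probes, 8 further probes were available. At 72 h, 3 of the 8 had the same sign as the brightest probe, and 3 were called in the opposite direction to a brightest probe that was itself called, namely that of *KIF16B* and a pair of *KIF1B*. In the mitotic list, 4 of 4 further probes had the same sign and 0 were opposite. The same share over all genes was not taken, so neither list's count can be called unusual. Probes of 1 gene can bind different transcript ends, and which transcripts they reported was not tested.

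**Figure D4:**
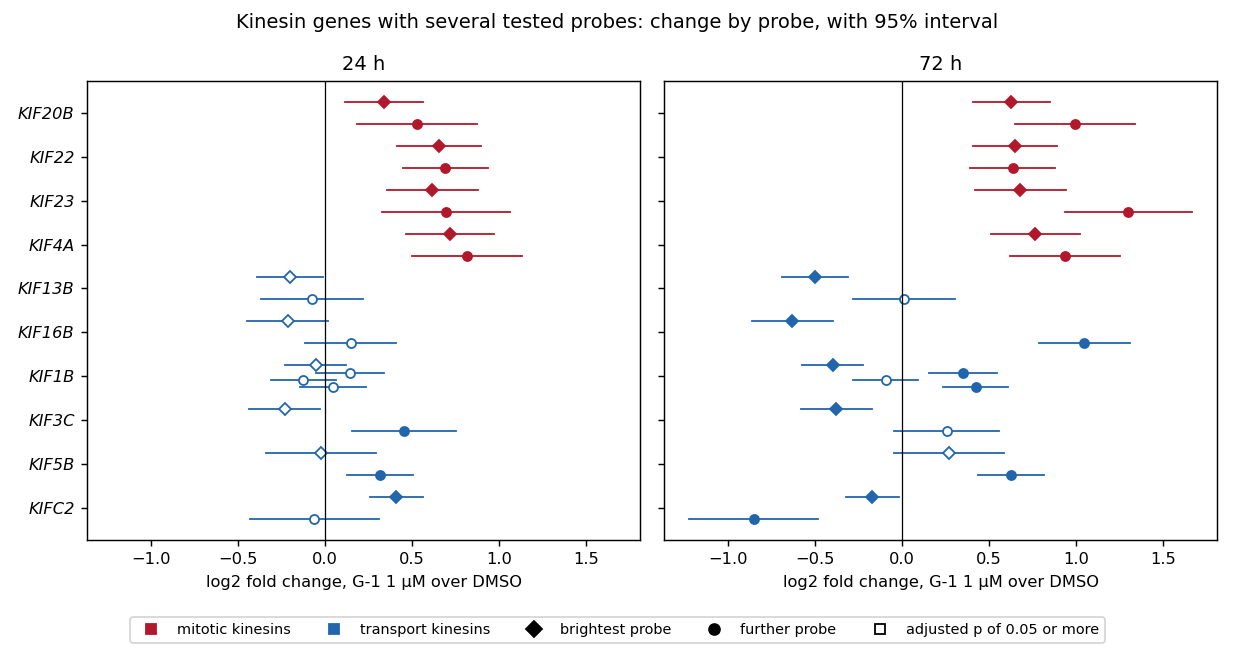
Log2 fold change of G-1 1 µM over DMSO with its 95% interval for each tested probe of the 10 kinesins with several, at 24 h (left) and 72 h (right), diamonds for the brightest probe and circles for further probes. Probes of the 4 mitotic genes all lie right of 0, while those of *KIF16B* run from -0.63 to 1.05 at 72 h.

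Of the other kinesins, 0 of 5 passed at 24 h, and at 72 h *KIF2A* rose and *KIF6* fell. Over all genes tested, 30.6% passed in either direction at 24 h and 66.1% at 72 h, so calls were not in excess in this list. *KIF2A* shortens microtubules at spindle poles and in growing processes, as a relative of KIF2C. It read 2.46, 2.64, 2.34 and 2.45 in DMSO and 2.53, 2.68, 2.56 and 2.54 at 1 µM after 24 h, when the groups overlapped, and 2.28, 2.36, 2.17 and 2.21 in DMSO and 3.14, 2.63, 2.94 and 2.99 at 1 µM after 72 h, when they did not. The rise at 72 h was 1.59-fold (log2 0.67 ± 0.10, limma adjusted p = 4.92e-06).

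*KIF6* read 0.02, 0.06, 0.58 and 0.76 in DMSO and 0.11, 0.04, 0.31 and 0.43 at 1 µM after 24 h. After 72 h it read 0.27, 0.51, 0.32 and 0.80 in DMSO, -0.13, -0.11, 0.15 and 0.08 at the IC50 dose and -0.80, -0.30, -0.58 and -0.66 at 1 µM. The 3 groups at 72 h were apart and in the order of the doses, as the IC50 arrays lay below all DMSO arrays, as 4.9% of all genes did, and above all 1 µM arrays. The 1 µM dose was 2.09-fold lower than DMSO (limma adjusted p = 9.47e-06), the one kinesin called lower by over 2-fold at 72 h, whereas the IC50 dose gave -0.48 ± 0.16 on the log2 scale and missed the threshold (adjusted p = 0.281). With a replicate block for either duration, added after the data were seen, the IC50 change of *KIF6* passed (adjusted p = 0.042). All these values of *KIF6* come from 1 tested probe of its 3. The others, designed on another RefSeq transcript, stood above background on no array. *KIF7*, a regulator of Hedgehog signalling at the primary cilium, *KIF24*, a centriolar motor, and *KIF26B*, a dim probe above background on 3 of 4 arrays in DMSO and at 1 µM after 72 h, passed at neither time, with 0.15, 0.20 and 0.35 at 72 h. *KIF12*, *KIF19*, *KIF26A*, *KIF27* and *KIF9* stood above background on no array and *KIF25* on 2.

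The IC50 dose was compared with DMSO to ask whether the lower dose moved the same genes. None of the 32 kinesins passed at 24 h or at 72 h by limma, while 2 and 1 had an unadjusted p under 0.05 (4.64% and 9.62% of all genes), and the methods' t-test gave 2 and 3 unadjusted and 0 after adjustment. The replicate block for either duration, added after the data were seen, called 1, *KIF6* at 72 h (adjusted p = 0.042). Calls were rare in all genes here, 0.246% at 24 h and 0.906% at 72 h. On the log2 scale the changes of mitotic kinesins ran from -0.19 to 0.05 at 24 h and at 72 h from 0.01 to 0.28, and the 95% intervals of all 11 reached from -0.46 to 0.31 and from -0.25 to 0.60. At 72 h, the 4 IC50 arrays lay above all DMSO arrays for *KIF14* (1.88, 1.88, 2.00 and 2.05 against 1.64, 1.75, 1.71 and 1.58) and *KIF20A* (3.88, 3.91, 4.01 and 3.96 against 3.78, 3.85, 3.79 and 3.69), beside 2.66% of all genes. For neither did the adjusted p pass (0.628 and 0.822).

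Within the slides of the first session, the median of IC50 minus DMSO over the mitotic kinesins at 24 h was 0.03 on slide 1 (2 against 3 arrays) and -0.28 on slide 2 (2 against 1). At 72 h it was 0.08 on slide 1 (1 against 2) and 0.09 on slide 2 (3 against 2). With slide as a fixed block, 0 kinesins passed at either time.

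Set directly against the IC50 dose, 11 of 11 mitotic kinesins were higher at 1 µM at 24 h and 9 of 11 at 72 h, with medians of 0.70 and 0.62, beside 18.2% and 35.9% of all genes that were higher and 8.32% and 29.3% that were lower. *KIF14* and *KIF15* missed the threshold at 72 h. Transport kinesins were again split, with 2 higher and 2 lower at 24 h and 4 higher and 6 lower at 72 h. These comparisons carry the same difference of slide as those with DMSO.

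Time in the vehicle was read next. Between DMSO at 72 h and at 24 h, 0 of 32 kinesins passed by limma and 0 by the methods' t-test after adjustment, with 6 and 5 at an unadjusted p under 0.05, beside 3.34% of all genes called and 19.3% at that unadjusted p. The kinesins' shares are close to those of all genes, and a replicate block called *KIF17* higher at 72 h (log2 0.35, adjusted p = 0.0205). Between the 1 µM groups, which share a slide, *KIF11* (0.30, adjusted p = 0.0174), *KIF20B* (0.28, adjusted p = 0.0448) and *KIF4A* (0.32, adjusted p = 0.0412) were higher at 72 h among the 11 mitotic kinesins, and 0 were lower. Of 16 transport kinesins, 1 was higher and 5 lower. In all genes, 18.9% were higher and 24.3% lower in this comparison.

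The test of whether the 1 µM effect differed between 24 h and 72 h, in which a constant offset of the 1 µM slide cancels, was passed by 6 of 32 kinesins, beside 34.1% of all genes. None was in the mitotic list (0 of 11, also 0 at an unadjusted p under 0.05, against 44.5% of all genes), whose interactions had a median of 0.06. *KIF2A*, placed among the other kinesins although it also acts at spindle poles, gained 0.57 ± 0.14 (SE, log2, adjusted p = 0.00363). *KIF6* fell by 0.93 ± 0.23 (adjusted p = 0.00406), *KIFC2* by 0.58 ± 0.10 (adjusted p = 0.000245), *KIF16B* by 0.42 ± 0.16 (adjusted p = 0.0497), *KIF1B* by 0.35 ± 0.12 (adjusted p = 0.0324) and *KIF3A* by 0.30 ± 0.09 (adjusted p = 0.0141), all between the effect at 72 h and that at 24 h. With 50th-percentile scaling 2 of the 6 passed, *KIF6* and *KIFC2*, and the call of *KIF16B* was lost on leaving out 18 of the 24 arrays singly. Further probes of *KIF16B* (0.90, adjusted p = 0.000682) and *KIF1B* (0.38, adjusted p = 0.0293) passed in the other direction. The remaining *KIF1B* probes did not pass (0.03 and 0.205), and the dimmer probe of *KIFC2* passed in the same direction (-0.79, adjusted p = 0.0206).

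The genes that work with kinesins were read in the same way from lists of known partners. Of 20 mitotic partners of kinesins, 14 rose and 0 fell at 24 h, and 15 rose and 1 fell at 72 h, beside 20% and 35.2% of all genes that were higher and 10.5% and 31% that were lower. The medians were 0.53 and 0.65. The largest changes at 72 h were in *AURKA*, the spindle pole kinase (1.60, adjusted p = 7.09e-10), *TPX2*, its activator (1.06, adjusted p = 7.76e-08), *PLK1*, the kinase that acts on KIF20A and centralspindlin (1.06, adjusted p = 5.69e-06), and *CDCA8*, a passenger complex subunit (1.05, adjusted p = 3.55e-07). The 1 that fell was *NUSAP1* (-0.30, adjusted p = 0.0191), a spindle microtubule protein named after its value was seen. *CENPE*, a mitotic kinesin without a KIF symbol that moves chromosomes to the metaphase plate, rose by 0.60 at 24 h (adjusted p = 0.00122) and 0.76 at 72 h (adjusted p = 1.59e-05), and *STARD9*, the other such gene, passed at neither time.

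Of 15 kinesin light chains and cargo adaptors, 5 rose and 0 fell at 24 h, and 4 rose and 6 fell at 72 h, with medians of 0.10 and -0.01. These shares are close to the 30.6% and 66.1% of all genes that passed in either direction. *KIFAP3*, which links the KIF3 motor to cargo, fell by 1.06 on the log2 scale at 72 h (adjusted p = 4e-08). *KLC4*, a kinesin light chain, fell by 0.80 (adjusted p = 0.000496), and *TRAK1*, which ties mitochondria to conventional kinesin, by 0.73 (adjusted p = 9.01e-08). *KLC2*, another light chain, rose by 0.48 (adjusted p = 5.43e-05).

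Dynein and dynactin, which carry cargo the opposite way, were raised in 10 of 22 tested genes and lowered in 0 at 24 h, and raised in 9 and lowered in 4 at 72 h, with medians of 0.17 and 0.11. Over all genes 20% were higher and 10.5% lower at 24 h, and 35.2% and 31% at 72 h. *PAFAH1B1*, the dynein regulator LIS1, rose by 0.86 at 72 h (adjusted p = 7.63e-10), *DYNLT3*, a light chain, by 0.71 (adjusted p = 5.73e-05) and *DYNC1LI1*, a light intermediate chain, by 0.52 (adjusted p = 0.0011), while *BICD1*, a cargo adaptor, fell by 0.69 (adjusted p = 2.31e-06).

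**Figure D5:**
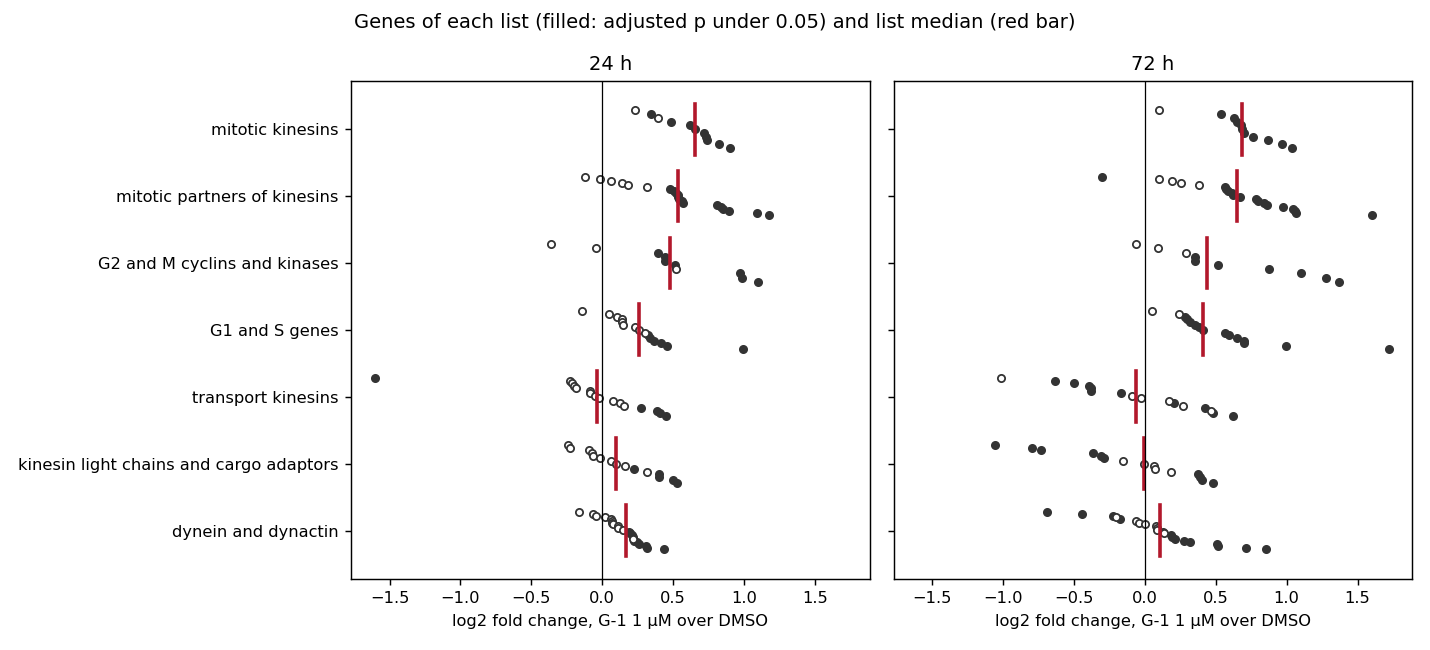
Log2 fold change of G-1 1 µM over DMSO for each tested gene of 7 lists (points, filled for an adjusted p under 0.05) and the median of each list (red bar), at 24 h (left) and 72 h (right). The medians of the mitotic kinesins are 0.66 and 0.68 and those of the mitotic partners 0.53 and 0.65, while those of the transport kinesins are -0.04 and -0.06.

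Cell cycle genes outside the kinesin machinery were read beside them. Of 10 G2 and M cyclins and kinases, 7 rose and 0 fell at either time, led at 72 h by *CDC20* (1.37, adjusted p = 1.58e-08), *CCNA2* (1.28, adjusted p = 7.14e-09), *CCNB1* (1.1, adjusted p = 8.97e-08) and *FOXM1* (0.87, adjusted p = 8.97e-08), a transcription factor of mitotic genes. Of 15 G1 and S genes, 6 rose and 0 fell at 24 h and 13 rose and 0 fell at 72 h, with medians of 0.26 and 0.41. Over all genes 20% rose at 24 h and 35.2% at 72 h. Of the G1 and S genes, *CCND1* (1.72, adjusted p = 8.88e-09), *RRM2* (0.99), *CDT1* (0.70) and *CDC6* (0.70) changed most. The mitotic kinesins rose beside genes of other phases on the same arrays, and the share of cells in each phase was not measured here.

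Markers of cell identity moved on the same slide. Of 8 tested astroglial and glioma markers, 1 rose and 6 fell at 72 h, beside 35.2% and 31% of all genes, with *GFAP* at -2.71, *S100B* at -1.96, *SOX2* at -0.84 and *FABP7* at 0.79 on the log2 scale. Among the tested markers of other cell types, *SYT1* rose and *VWF*, *RBFOX3*, *SNAP25* and *MBP* fell. The part of these changes, of the slide and of background in the kinesin results was not tested.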

How the data were processed

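Total RNA of U251 cells was hybridised to 24 single-colour (Cy3) Agilent 60K gene expression arrays. The authors deposited the scanner output of each array, made with Agilent Feature Extraction (version 12.1.1.1 per the file headers, 10.7.3.1 in the submitters' processing notes), whose processed signal is an intensity that was background-subtracted and detrended within the array and not yet normalized between arrays. A further table by the authors holds log2 values and served as an alternative. For a comparison, the median of each probe over the arrays was subtracted from the values used here. After that the differences had a median of 0.00195 and were at most 0.0106 over 22970 probes. Subtracting a constant from a probe leaves its group differences unchanged, so this alternative could hardly give another result. Per the file headers, flags (coded other than as measurements) mark spots that are above background, saturated or outlying.

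Each processed signal was scaled to the 75th percentile of its array and log2 transformed, outlier-flagged spots were left out, and spots of a probe were averaged. Probes that the software marked as clearly brighter than background on each of the 4 arrays of some group were fitted with 6 group means in limma 3.58.1 (R 4.3.3), with Benjamini-Hochberg adjustment over all probes tested. The procedure was tested on simulated data with known changes. The number of arrays, 4 per group, limits the precision. The smallest p of an exact permutation test of 4 against 4 arrays is 0.0286.

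The members and gene lists were chosen with earlier results of these data known. Values on every array are given for the up to 5 members of each list with the largest change among those that passed at 72 h for 1 µM against DMSO, and for those that passed at 24 h with over 1.5-fold change. They are also given for the largest interactions among those that passed (*KIF2A*, *KIF6* and *KIFC2*). Others were summarised. Roles of genes are background. Alternatives were the 50th percentile, normexp background correction (offset 50), quantile normalization, all probes including dim ones, the mean or dimmest of a gene's probes, slide or replicate number as a block, the deposited table, the methods' t-test with and without a 2-fold threshold, and leaving out each array. Arrays with the same replicate number deviated together in DMSO and 1 µM at 24 h (correlation of deviations 0.166 to 0.281 in all 4 pairs), a pairing read from the data and the numbers in the titles, while at 72 h the same correlations were 0.0241 to 0.101. Between DMSO and the IC50 dose they were -0.113 to 0.394 at 24 h and 0.0528 to 0.485 at 72 h, over 0.1 in 3 of 4 pairs each. The same number gave a higher correlation than any other number in 3 of 4 pairs for 1 µM at 24 h and in 1 at 72 h. For the IC50 dose it did so in 0 pairs at 24 h and in 3 at 72 h. Whether arrays of the same number were truly paired was not settled. Protein sequences were not used here. The value of 1 cell type marker is not reported here.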

Additional observations from a re-analysis of the deposited data

Results flagged for a closer look

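In 96 groups of 4 arrays (16 kinesins in 6 groups), 2 held an array that stood apart from the other 3 by Dixon's test, which flags about 1 group in 20 by chance. *KIF4A* read 3.76 on DMSO 72 h replicate 3 and 3.49 to 3.51 on the others. *KIF21B* read -3.82 on DMSO 24 h replicate 2 and -2.45 to -2.35 on the others.

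The effect of 1 µM differed between 72 h and 24 h for 6 kinesins by the interaction term of limma. It was larger at 72 h for *KIF2A*, by 0.57 on the log2 scale (adjusted p = 0.00363). It was lower at 72 h for *KIF6* (-0.93, adjusted p = 0.00406), *KIFC2* (-0.58, adjusted p = 0.000245), *KIF16B* (-0.42, adjusted p = 0.0497), *KIF1B* (-0.35, adjusted p = 0.0324) and *KIF3A* (-0.30, adjusted p = 0.0141). Further probes of *KIF16B* and *KIF1B* did not share this direction, with interactions of 0.90 (adjusted p = 0.000682) for *KIF16B* and 0.03 to 0.38 for the 3 of *KIF1B*. The *KIF1B* probe at 0.38 passed the test in the other direction (adjusted p = 0.0293).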

How the results depend on the processing

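At 1 µM against DMSO, mitotic kinesins called higher numbered 8 to 10 at 24 h and 10 to 10 at 72 h when arrays were left out singly. With a 2-fold threshold, by limma or by the methods' t-test with or without adjustment, these counts became 0 and 1, and against the IC50 dose 1 at 24 h and 0 at 72 h. Transport kinesins called at 24 h were 3 with the 50th percentile, 3 by the adjusted t-test, 1 by the unadjusted t-test and limma with a 2-fold threshold (*KIF21B*, not above background at 1 µM), and 0 by the adjusted t-test with it. Leaving out arrays gave 3 to 5, with 3 without G-1 1 µM 24 h replicate 1. At 72 h the 2-fold settings gave 0 transport kinesins higher and 0 lower, the mean of a gene's probes 3 lower, and the dimmest probe 7 higher and 2 lower. Leaving out arrays gave 3 to 5 higher and 5 to 7 lower. The median of transport kinesins at 72 h turned to 0.12 and 0.23 with the mean and the dimmest probe, a setting added after the data were seen. The same settings turned *KIF16B* at 72 h to 0.21 and 1.05 and its interaction to 0.24 and 0.90, and the dimmest probe turned *KIF13B* at 72 h to 0.012 and *KIFC2* at 24 h to -0.061. The cause was not tested.

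For the IC50 dose and for time in DMSO, 0 kinesins passed with any array left out (0 to 0). With a replicate block made separately for either duration, added after the data were seen, 1 passed for the IC50 dose at 72 h (*KIF6*, adjusted p = 0.042). With the planned replicate block, 1 passed for time in DMSO (*KIF17*, adjusted p = 0.0205). For the interaction, 2 kinesins passed with the 50th percentile, 3 without the filter on dim probes and 0 with a 2-fold threshold, while normexp gave 1 mitotic call (*KIF20B*, adjusted p = 0.0353). Leaving out arrays gave 4 to 6 in all and 0 to 0 mitotic. Against the IC50 dose, leaving out arrays gave 10 to 11 mitotic kinesins at 24 h and 9 to 10 at 72 h. With slide as a random block, the calls of *KIF21B* at 24 h (adjusted p = 0.0605) and *KIFC2* at 72 h (adjusted p = 0.0782) were lost. For the 16 kinesins chosen to be given on every array, 1770 recomputed values kept their side of the threshold, 134 lost the call, 7 gained it and 6 turned. A change of sign was counted as a turn only where a fit had passed the threshold. The list medians are not in this count. It includes the deposited table, whose group differences are nearly those of the values used here. Dim probes limit *KIF21B*, *KIF21A*, *KIF26B* and the 9 kinesins not tested.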
